A study of Homo sapiens with 38 samples.

Results

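The HES and HEY genes are a family of 10 human genes, HES1 to HES7, HEY1, HEY2 and HEYL, and all 10 were examined among 19970 protein-coding genes. They were taken by name, and each was read at its promoter, the canonical transcription start site (TSS) ± 1500 bp, and within 5000 bp of that start. Binding was mapped by CUT&RUN, in which an antibody guides a nuclease to a chromatin protein and the fragments cut free are sequenced. Libraries came from 2 human non-small cell lung cancer lines. Per the study, H661 is SMARCA4-deficient and makes its own DPPA2 and DPPA4, and the H1299 line makes them only with doxycycline.

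The groups were as follows. H1299 cells carried inducible transgenes for DPPA2 with a Flag tag and DPPA4 with a V5 tag and were treated with 2 µg/mL doxycycline for 7 days, with 12 libraries from 6 antibodies in 2 replicates. Antibodies to DPPA2, Flag (monoclonal) and Flag (superclonal) were directed at DPPA2, and N-terminal DPPA4, ab154642 and V5 antibodies at DPPA4. The derived H661 lines, 2 in all, held doxycycline-inducible short hairpin RNAs from integrated transposons, against DPPA4 (shDPPA4) or against DPPA2 and DPPA4 (shDPPA2+4), and were given 2 µg/mL doxycycline (DOX) or water for 7 days. DPPA4 and RING1B were profiled in DOX and water cells, and PCGF1, MTF2 and EP300 in water cells, 7 libraries a line. Parental, untreated H661 gave 4 libraries, 1 of DPPA2 and 3 of DPPA4 (N-terminal, ab154642 and central-region antibodies). H661 had 1 library per antibody and arm, so no H661 difference has a replicate check or a p-value. All H1299 libraries came from DOX-treated cells, and no uninduced H1299 library was analysed here. No nontargeting hairpin library was analysed here either, so an effect of doxycycline itself and of the hairpins cannot be told apart.

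HES and HEY proteins are basic helix-loop-helix repressors with an Orange domain. HES proteins recruit Groucho (TLE) co-repressors, and several genes of the family are classical targets of Notch signalling. The Notch intracellular domain joins RBPJ on DNA to switch on genes such as HES1, HES5, HEY1, HEY2 and HEYL. HES7 is known for its oscillation in the segmentation clock, and HES6 differs from the rest in opposing HES1. HES3 is best known from neural progenitors. DPPA2 and DPPA4 are SAP domain proteins of the early embryo that act as a pair at CpG-rich chromatin. RING1B is the ubiquitin ligase of Polycomb repressive complex 1, and PCGF1 marks one variant form of it. MTF2 is a Polycomb repressive complex 2 accessory protein that binds unmethylated CpG DNA, and EP300 is a histone acetyltransferase of active promoters and enhancers.

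Sequencing depth was not measured, since whole-library totals were not used, and only the region lists are described. Kept EPIC2 domains held 48262 to 6850681 reads and numbered 4904 to 105640 a library, and kept MACS2 peaks numbered 12 to 50414. Some lists stood apart. The Flag monoclonal antibody in H1299 replicate 2 was the shortest EPIC2 and MACS2 list, all lists of H1299 replicate 2 were shorter than those of replicate 1, and the central-region DPPA4 antibody reached 5.47% of all promoters. The main counts that rest on them, and the covered-length differences of HES7, HEY1 and HEY2, are also given without some of them. Whether H1299 replicates were grown as separate cultures is not stated in the labels, so a p-value reflects how these libraries vary, and that variation could be technical.

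The promoters of the family were not alike in sequence. CpG content was read from the TSS ± 500 bp. CpG-rich promoters were 7 (HES2, HES4, HES5, HES6, HEY1, HEY2 and HEYL), with a CpG observed/expected ratio from 0.76 at HEYL to 0.95 at HEY2. HES1 was intermediate (0.62), and HES3 (0.37) and HES7 (0.47) were CpG-poor. Among all promoters, 8411 were CpG-rich and 5642 CpG-poor.

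Stretches of sequence are shown for the genes on which the results turn. The first pair are the 200 bases around the DPPA2 summit of HES3, the gene with the highest DPPA2 fold in parental H661, at chr1:6246117-6246316 on the plus strand of hg38, and of HEYL, the gene with the lowest, at chr1:39639821-39640020 on the minus strand. Neither overlaps an annotated exon. The HES3 stretch lies downstream of the gene and the HEYL stretch upstream of its start. CpG dinucleotides are in capitals, 14 in the HES3 stretch and 21 in the HEYL stretch.
HES3: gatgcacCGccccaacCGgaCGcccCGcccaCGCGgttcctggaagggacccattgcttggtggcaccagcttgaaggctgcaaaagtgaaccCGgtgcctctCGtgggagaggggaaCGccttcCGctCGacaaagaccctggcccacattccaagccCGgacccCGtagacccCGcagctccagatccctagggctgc
HEYL: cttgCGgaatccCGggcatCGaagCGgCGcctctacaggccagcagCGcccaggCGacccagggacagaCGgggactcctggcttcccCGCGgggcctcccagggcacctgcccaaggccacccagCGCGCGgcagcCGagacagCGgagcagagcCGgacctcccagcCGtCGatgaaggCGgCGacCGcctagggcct

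The next pair are the 250 bases before the start of HEY2, where MTF2 was strongest, and of HES7, whose promoter no MTF2 region touched, from RefSeq (GRCh38.p14). They lie at chr6:125749382-125749631 on the plus strand and chr17:8124107-8124356 on the minus strand. CpG dinucleotides are again in capitals, 35 at HEY2 and 13 at HES7. The HEY2 stretch does not hold the MTF2 summit, which lay 1457 bp before the start in shDPPA4 water cells.
HEY2: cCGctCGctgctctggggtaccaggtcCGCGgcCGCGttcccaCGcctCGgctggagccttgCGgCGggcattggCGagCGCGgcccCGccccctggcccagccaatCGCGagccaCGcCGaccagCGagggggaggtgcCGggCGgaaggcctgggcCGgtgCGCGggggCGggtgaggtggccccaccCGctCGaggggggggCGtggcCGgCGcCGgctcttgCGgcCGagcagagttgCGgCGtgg
HES7: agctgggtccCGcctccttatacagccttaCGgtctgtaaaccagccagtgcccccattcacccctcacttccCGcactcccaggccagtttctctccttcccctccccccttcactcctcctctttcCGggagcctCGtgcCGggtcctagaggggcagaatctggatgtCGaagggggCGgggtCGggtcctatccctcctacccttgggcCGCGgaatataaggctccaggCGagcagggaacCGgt

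The RBPJ motif TGGGAA was searched on both strands from 250 bases before to 50 after the start in the RefSeq promoter table, which held 9 of the 10 genes. It was found at 6 of these 9 (HES1, HES3, HES4, HES5, HEY2 and HEYL) and at 24.3% of all 27305 promoters in the table. HES1 held 2 matches, beginning 84 and 70 bases before the start, shown in capitals in its 250 upstream bases at chr3:194135898-194136147, plus strand.
HES1: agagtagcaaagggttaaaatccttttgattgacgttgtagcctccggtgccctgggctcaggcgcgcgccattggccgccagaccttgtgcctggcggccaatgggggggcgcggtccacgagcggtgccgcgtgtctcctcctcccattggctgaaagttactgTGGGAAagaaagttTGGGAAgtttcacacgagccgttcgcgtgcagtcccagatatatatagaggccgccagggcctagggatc
The E box CACGTG was found at 0 of the 9 promoters, against 7.43% of all, and the N box CACNAG at 4 of 9, against 38.0% of all. These are matches of letters and not measured sites.

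In parental H661, DPPA2 and DPPA4 lay at nearly every promoter of the family. A DPPA2 peak touched 10 of 10 promoters (46.3% of all promoters were touched) and an N-terminal DPPA4 peak 9 of 10 (47.0% of all), the exception being HEY2. The ab154642 antibody found all 10 (50.6% of all). DPPA2 and N-terminal DPPA4 peaks were both present at 9 of 10 promoters, against 39.2% of all promoters, and EPIC2 domains of both at 10 of 10, against 48.2%. Among CpG-rich promoters alone the joint share was 61.2%, and among CpG-poor promoters 5.10%, so that HES3 and HES7 carried both proteins in a class where few promoters did. The class, however, was read from the TSS ± 500 bp. With a binding window of 500 bp, 7 of 10 genes carried both (35.0% of all promoters). HES7 was among them, and HES1, HES3 and HEY2 were not. The central-region antibody touched only HES1, HES3 and HES7, 3 of 10, where 5.47% of all promoters were touched.

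The level of DPPA2 differed widely within the family. The fold over IgG of the highest DPPA2 peak was 33.4 at HES3, 31.6 at HES5, 14.7 at HEY1, 11.3 at HES6, 11.2 at HES2, 9.62 at HES7, 7.36 at HES4, 7.28 at HES1, 4.53 at HEY2 and 3.58 at HEYL. HES3 and HES5 ranked 12 and 16 among the 9256 promoters with a DPPA2 peak, and HEYL ranked 8965. With 1 library, no spread can be set against neighbours in this order.

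**Figure D1:**
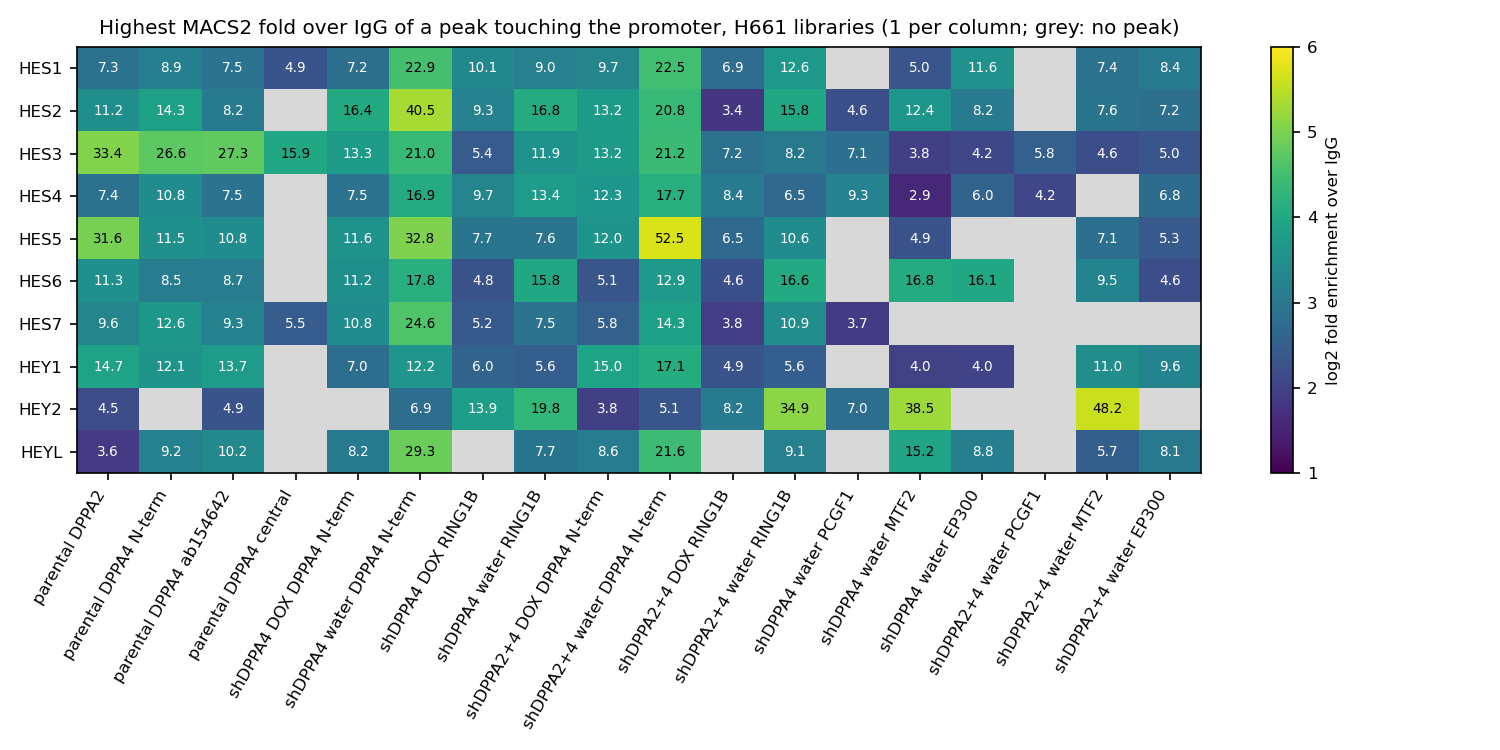
Highest MACS2 fold enrichment over IgG of a peak touching the promoter, for the 10 genes (down) in the 18 H661 libraries (across, 1 library a column), printed in each cell and coloured on a log2 scale, with grey where no peak was called. DPPA4 reached 52.5-fold at HES5 and MTF2 48.2-fold at HEY2, while HES7 had no MTF2 peak.

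Where the summits lay set several of these values apart from the start sites. At HES3, which is 1400 bp long, the 33.4-fold DPPA2 summit lay 2038 bp from the start, past the end of the gene, and the peak did not reach the start. The N-terminal DPPA4 summit stood at 2056 bp (26.6-fold) and the central-region summit at 2101 bp (15.9-fold, rank 5 of 1092). RING1B and PCGF1 summits of water cells fell at the same place, at 2052 and 2104 bp in shDPPA4 and at 2087 and 2037 bp in shDPPA2+4. A separate DPPA2 peak inside HES3, at 343 bp, was 4.53-fold.

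At HES5 the 31.6-fold DPPA2 peak was 5524 bp wide and had its summit 3820 bp downstream, inside PANK4, a pantothenate kinase family gene whose start lies 3667 bp from that of HES5. N-terminal DPPA4 in the same cells gave separate peaks, 27.3-fold at 3848 bp and 11.5-fold at 296 bp upstream of the HES5 start. H1299 replicate 1 also separated them: DPPA2 was 71.4-fold at 3820 bp and 16.1-fold at 1024 bp, and N-terminal DPPA4 was 50.6-fold at 3808 bp and 12.0-fold at 1076 bp. The DPPA2 value read at the HES5 promoter in parental H661 thus came from a peak whose summit was at PANK4.

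At HEY1 the DPPA2 summit lay 2145 bp into the gene, in a coding exon. The 9.62-fold DPPA2 summit of HES7 lay 2185 bp into the gene, also in a coding exon. A separate HES7 peak of 8.49-fold had its summit 586 bp before the start. When a peak was required to have its summit inside the promoter window, a rule added after the data were seen, 7 of 10 genes carried both proteins (38.0% of all promoters), without HES5, HEY1 and HEY2. HES2, HES4, HES6 and HEYL had DPPA2 summits near the start, 186 bp into HES2, 195 bp into HES6, 259 bp before HES4 and 278 bp before HEYL.

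The water-treated hairpin lines added the Polycomb proteins and EP300. DPPA4 domains touched 10 of 10 promoters in both lines (67.1% of all promoters), RING1B 10 of 10 (57.6%) and EP300 10 of 10 (45.6%). MTF2 touched 8 of 10 (56.4%), without HES3 and HES7, the CpG-poor promoters. PCGF1 touched 8 of 10 (16.0%), without HEY1 and HEYL. All 5 proteins lay at 6 of 10 promoters in both lines, against 10.9% of all promoters. These were HES1, HES2, HES4, HES5, HES6 and HEY2.

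The narrower MACS2 peaks kept RING1B at 10 of 10 (53.2% of all) and gave MTF2 at 8 of 10 (45.5%), without HES4 and HES7, and EP300 at 7 of 10 (29.3%), without HES5, HES7 and HEY2. PCGF1 peaks lay at 2 genes, HES3 and HES4 (1.41% of all), so the PCGF1 count depended on the caller. Neither PCGF1 list was long, with 696 and 1604 MACS2 peaks in all. Neither caller found MTF2 at the HES7 promoter in either line, although in shDPPA2+4 an EPIC2 domain of 800 bp (28 reads, 2.99-fold) lay within 5000 bp of its start.

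HES1, a classical Notch target, carried much of its signal away from its start. The DPPA2 summit of parental H661 lay 743 bp into the gene (7.28-fold), beside N-terminal DPPA4 at 712 bp (8.88-fold), and a further DPPA4 peak of 12.8-fold stood 3145 bp from the start, past the end of the gene. In water-treated hairpin lines the highest DPPA4 summits were upstream, 1170 bp before the start in shDPPA4 (22.9-fold) and 1153 bp in shDPPA2+4 (22.5-fold). MTF2 stood nearby, at 1030 and 1077 bp before the start (4.99-fold and 7.40-fold). EP300 stood at 1106 bp before the start in shDPPA4 (11.6-fold) and at 131 bp in shDPPA2+4 (8.45-fold). RING1B formed peaks of 7630 and 8018 bp across the gene, with summits 2857 and 2920 bp past the start (8.99-fold and 12.6-fold).

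HES2 had a compact peak at its canonical start and another toward ESPN, an actin-bundling protein gene that starts 4857 bp upstream on the other strand. The annotated HES2 gene has 5 protein-coding starts and reaches position 6424670 on chromosome 1. Summits 3897 and 3915 bp upstream of the canonical start thus lay inside its annotated span. Those 4988 and 4978 bp upstream lay just past it, at 6424907 and 6424897. DPPA2 in parental H661 was 11.2-fold at the HES2 start and 13.6-fold 3897 bp upstream. DPPA4 in water cells was 40.5-fold 119 bp into HES2 and 21.9-fold 4988 bp upstream in shDPPA4, and 20.8-fold and 27.2-fold at 55 bp and 3915 bp upstream in shDPPA2+4. The higher of the pair was thus not the same in both lines. MTF2 gave the same pair of positions, 12.4-fold at 101 bp and 11.0-fold at 4978 bp upstream in shDPPA4.

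HES4 and HES6 had peaks close to their starts, although EP300 at HES4 was higher 1268 bp downstream (5.99-fold) in shDPPA4 water cells. At HES4 the summits of DPPA4, RING1B, PCGF1, MTF2 and EP300 nearest the start in shDPPA4 water cells lay 185, 236, 167, 160 and 143 bp before it, and their folds were 16.9, 13.4, 9.28, 2.93 and 4.81. At HES6 DPPA4, MTF2, RING1B and EP300 lay 96 and 55 bp after the start and 99 and 61 bp before it, with folds of 17.8, 16.8, 15.8 and 16.1. HES6 had no PCGF1 peak in either line, and its summits also lie within an overlapping annotated gene, ENSG00000225057.

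HES7 had broad DPPA4 peaks, 9848 bp wide in shDPPA4 and 8808 bp in shDPPA2+4 water cells, with summits in a coding exon 2105 and 2157 bp from the start (24.6-fold and 14.3-fold). Parental H661 split them into a peak at 2149 bp (7.82-fold) and one 554 bp before the start (12.6-fold). RING1B was highest near the start, 174 bp before it in shDPPA4 (7.53-fold) and 332 bp before it in shDPPA2+4 (10.9-fold).

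HEY1, whose start lies 375 bp from that of LINC01607 on the other strand, had its highest DPPA4 summit 751 bp before the start in shDPPA4 water cells (12.2-fold) and 58 bp after it in shDPPA2+4 water cells (17.1-fold). MTF2 and EP300 were 3.98-fold and 4.00-fold in shDPPA4 and 11.0-fold and 9.57-fold in shDPPA2+4, with summits upstream of the start. No PCGF1 MACS2 peak touched it, while an EPIC2 domain of PCGF1 covered 600 bp of its promoter window in shDPPA4 and none did in shDPPA2+4.

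HEY2 was the gene of the family with the least DPPA4 and the most MTF2 and RING1B. Its DPPA4 peak was 6.89-fold in shDPPA4 water cells and 5.07-fold in shDPPA2+4 water cells, the lowest of the 10 in both lines. Its MTF2 peak was 38.5-fold and 48.2-fold in these cells, ranks 282 and 100 among promoters with an MTF2 peak. RING1B was 19.8-fold and 34.9-fold, ranks 285 and 45, in peaks of 6857 and 9601 bp. The summits stood upstream, MTF2 at 1457 and 1432 bp and RING1B at 2428 and 2443 bp before the start. In shDPPA4 both summits lay within HEY2-AS1, a long noncoding RNA gene on the other strand that starts 452 bp upstream of HEY2.

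HEYL ran the other way in DPPA4, at 29.3-fold in shDPPA4 and 21.6-fold in shDPPA2+4 water cells, in peaks of 1616 and 1184 bp with summits 253 and 211 bp before the start. Its RING1B peaks were 656 and 571 bp wide. HES6 had the highest EP300 value of the family in shDPPA4 water cells, 16.1-fold (rank 66), but 4.60-fold in shDPPA2+4 water cells. HES2 had the highest DPPA4 in shDPPA4 water cells, 40.5-fold, and 20.8-fold in shDPPA2+4 water cells. The 52.5-fold DPPA4 peak of HES5 in shDPPA2+4 water cells was 7697 bp wide with its summit 3792 bp downstream, at PANK4.

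Cells treated with DOX to induce the hairpins kept EPIC2 domains at every gene. DPPA4 domains touched 10 of 10 promoters in the DOX arms of both lines (55.2% of all promoters), and RING1B 10 of 10 (47.5%). With MACS2, HEYL had no RING1B peak in DOX cells of shDPPA4 or shDPPA2+4, against 7.67-fold and 9.06-fold in water cells. RING1B MACS2 peaks touched 48.3% and 28.1% of all promoters in these DOX cells. The targeted proteins themselves were read only through the DPPA4 signal. The DOX and water libraries shared their IgG control, which allowed reads to be scaled to library size: the DOX library was 0.561 times the water library for DPPA4 in shDPPA4, 1.93 times for DPPA4 in shDPPA2+4, 1.28 times for RING1B in shDPPA4 and 1.62 times for RING1B in shDPPA2+4.

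Reads per kb of the domains touching each promoter were the main measure. DPPA4 reads per kb fell past 2-fold at 1 of 10 genes in shDPPA4 (HES4, log2 -1.16, with 8.20% of all promoters) and at 1 of 10 in shDPPA2+4 (HES5, -1.28, with 19.2%). Domains were called separately in each arm, so reads per kb can compare unlike stretches. In shDPPA2+4 the domains touching HES5 spanned 3500 bp in DOX cells and 9700 bp in water cells. The 52.5-fold water peak there had its summit at PANK4, where DOX cells had a separate 26.8-fold peak. With a 5000 bp window the log2 ratio was -0.73 at HES5 in shDPPA2+4 and -0.73 at HES4 in shDPPA4. DPPA4 loss at the HES5 start alone was not tested. DPPA4 reads per kb lay below 0 at 8 of 10 genes in each line. The exceptions in both were HES3 (1.27 in shDPPA4 and 0.45 in shDPPA2+4) and HEY2 (0.09 and 0.32). Most promoters lay below 0 as well, with an upper quartile of all promoters of -0.04 in shDPPA4 and -0.30 in shDPPA2+4. The median of the 10 genes was -0.63 against -0.37 for all promoters in shDPPA4, and -0.61 against -0.62 in shDPPA2+4. HES1 had 489 DPPA4 reads over 8400 bp in DOX cells and 1865 over 9500 bp in water cells of shDPPA4, a scaled log2 ratio per kb of -0.92 (95% interval -1.07 to -0.78), and -0.97 in shDPPA2+4. The intervals are exact and cover counting error only.

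Total reads in the touching domains were added as a measure after the data were seen, and they mix level with domain length, because domains were called separately in each arm. HES3 had 333 DPPA4 reads over 2100 bp in DOX cells and 1399 over 11900 bp in water cells of shDPPA4, so that its reads had a log2 ratio of -1.24 where its reads per kb had 1.27. At HES5 in shDPPA4 the touching domain held 211 reads over 3600 bp in DOX cells and 1904 over 11900 bp in water cells, and the separate peak at PANK4 was 29.6-fold in DOX cells and 20.3-fold in water cells. By this measure 8 of 10 genes were past 2-fold lower in shDPPA4, with 75.3% of all promoters, and 9 of 10 in shDPPA2+4, with 63.7%. The median of the 10 genes was -1.40 against -1.38 for all promoters in shDPPA4, and -1.16 against -1.15 in shDPPA2+4. Over all promoters the median ratio of domain length, DOX over water, was 0.500 for DPPA4 in shDPPA4 and 0.692 in shDPPA2+4.

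HEY2 kept little DPPA4 in shDPPA4, with 8 reads over 300 bp in DOX cells and 121 over 2700 bp in water cells, and no MACS2 peak in DOX cells. Its reads per kb had a log2 ratio of 0.09 with a wide interval (-1.16 to 1.11). In shDPPA2+4 it had 46 reads over 1200 bp in DOX cells and 51 over 3200 bp in water cells (0.32, interval -0.29 to 0.92).

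RING1B, unlike DPPA4, was not the target of a hairpin. In shDPPA4, reads per kb fell past 2-fold at 0 of 10 genes (4.79% of all promoters), and total reads were past 2-fold lower at 0 of 10 (2.16% of all). In shDPPA2+4, reads per kb fell at 3 of 10, HES2, HES3 and HES7 (22.8% of all), and total reads were past 2-fold lower at 3 of 10, HES1, HES2 and HES6 (26.1% of all). The median of the family in reads per kb was -0.25 in shDPPA4 and -0.73 in shDPPA2+4, against -0.28 and -0.69 for all promoters. The difference between lines was not tested, since each arm had 1 library.

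HES1 had 672 RING1B reads over 9400 bp in DOX cells and 548 over 8400 bp in water cells of shDPPA4, a log2 ratio per kb of -0.23 (-0.39 to -0.06). In shDPPA2+4 it had 172 reads over 3500 bp in DOX cells and 280 over 6800 bp in water cells (-0.44, interval -0.72 to -0.16). HEY2 had 1131 reads over 11800 bp in DOX cells and 406 over 6700 bp in water cells of shDPPA4, a log2 ratio per kb of 0.30 (0.14 to 0.47) and 1.12 for total reads. Its highest RING1B peak there went the other way, at 13.9-fold in DOX cells and 19.8-fold in water cells. In shDPPA2+4 HEY2 had 484 reads over 8100 bp in DOX cells and 398 over 6300 bp in water cells (-0.77 per kb), and its highest RING1B peak was 8.20-fold in DOX cells and 34.9-fold in water cells.

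**Figure D2:**
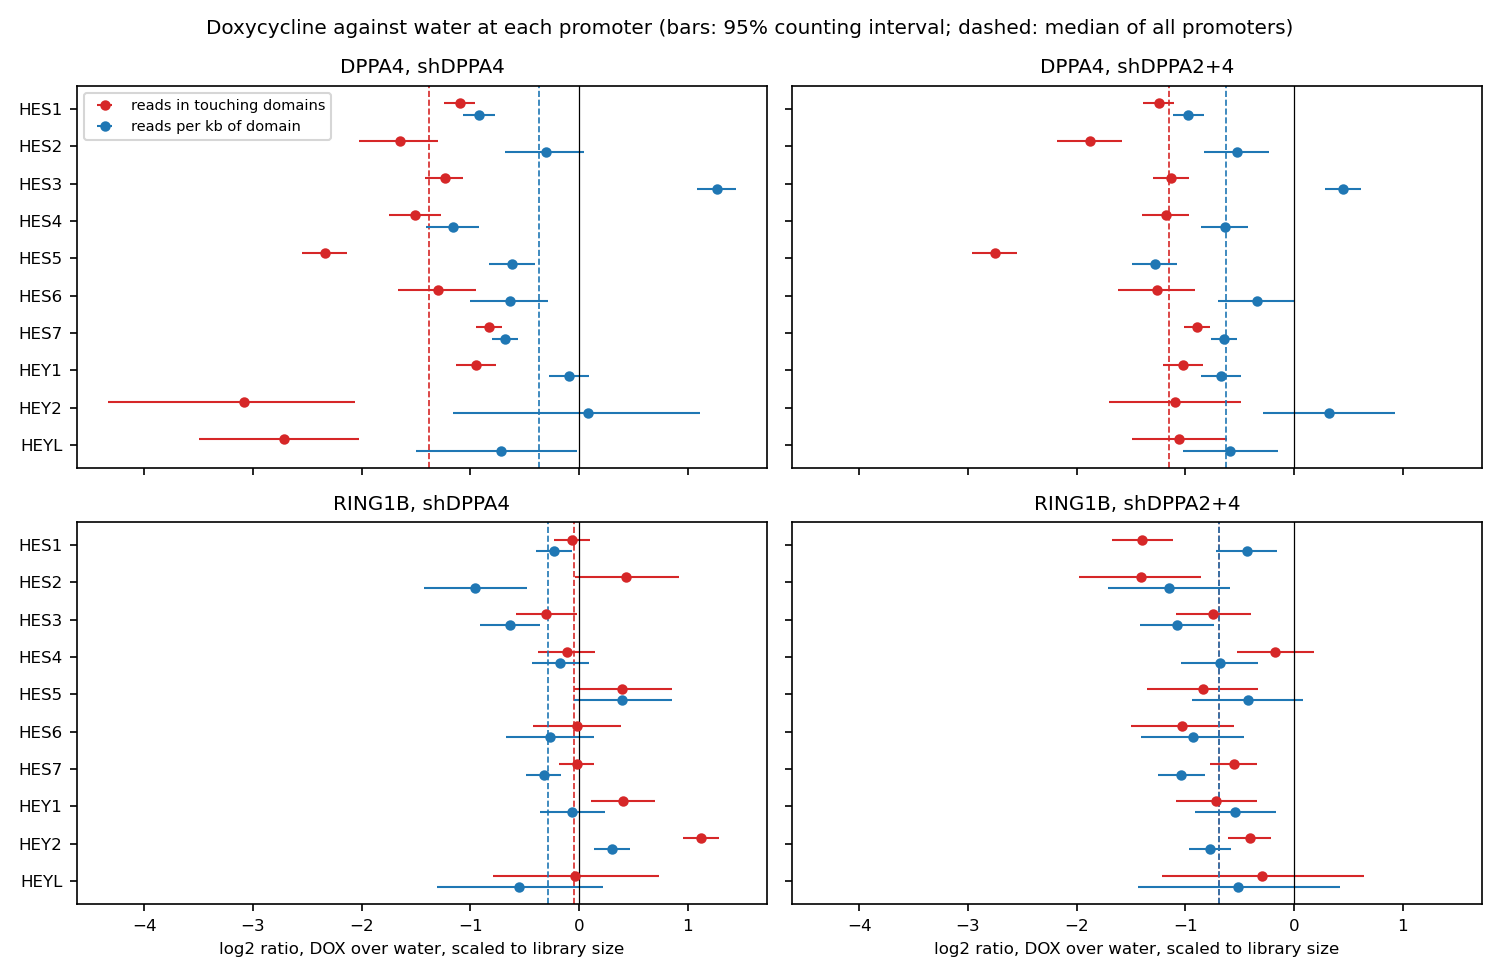
Scaled log2 ratio of DOX over water (x axis) for DPPA4 and RING1B at each gene in both hairpin lines, as reads in the touching domains (red) and reads per kb of domain (blue), with 95% counting intervals; dashed lines are medians of all promoters. DPPA4 reads per kb lie below 0 at 8 of 10 genes in each line, as they do at most promoters. DPPA4 total reads, which fall with domain length, lie further left.

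In H1299, where DPPA2 and DPPA4 were supplied, replicate 1 placed them at the whole family. Domains touched 10 of 10 promoters with the DPPA2 antibody (62.8% of all promoters), Flag monoclonal (59.4%), Flag superclonal (58.9%), N-terminal DPPA4 (64.3%) and V5 (65.2%), and 9 of 10 with ab154642 (56.7%), without HES2. Replicate 2 gave 7 with DPPA2 (42.5%), 1 with Flag monoclonal, HEY1 (5.27%), 7 with Flag superclonal (33.8%), 5 with N-terminal DPPA4 (37.6%), 7 with ab154642 (49.6%) and 8 with V5 (53.0%). DPPA2 and N-terminal DPPA4 lay in both replicates at 5 of 10 promoters, HES1, HES6, HES7, HEY1 and HEY2, against 30.6% of all. Without replicate 2 the count was 10 of 10.

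The separate peaks of H661 had counterparts in H1299 replicate 1. At HES1 the DPPA2 summit lay 1451 bp before the start (28.2-fold) and N-terminal DPPA4 1417 bp before it (23.8-fold, in a peak of 9404 bp). At HES6 DPPA2 was 28.3-fold and N-terminal DPPA4 38.9-fold, 131 and 124 bp after the start. At HES7 DPPA2 and N-terminal DPPA4 were 38.9-fold and 40.1-fold in the coding exon, 2100 and 2164 bp from the start. HEYL, lowest for DPPA2 in parental H661, was 14.9-fold with DPPA2 and 21.6-fold with N-terminal DPPA4, 192 and 276 bp before its start. HES2 was low here, at 5.82-fold with DPPA2. In replicate 2 the HES7 exon peak was 9.92-fold with DPPA2 and 6.44-fold with N-terminal DPPA4, HES6 was 10.8-fold and 10.2-fold, and no peak of these antibodies lay at HES1, HES2 or HEYL. Cell line, protein source and IgG differ between H661 and H1299, so these folds were set side by side and not compared.

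HEY1 was touched in 12 of 12 H1299 libraries, and HES1, HES6, HES7 and HEY2 in 11, all missing only the Flag monoclonal library of replicate 2. HES2 and HES4 were touched in no library of replicate 2, and in 5 and 6 of the 6 libraries of replicate 1.

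The length of the promoter window covered by domains was compared between the 6 DPPA2-directed and the 6 DPPA4-directed libraries with an exact two-sided permutation test over all 924 splits, at each of the 12998 promoters covered in at least 2 libraries. No promoter passed an adjusted p of 0.05 (0.00% of promoters, 0 of 10 genes), and 614 had an unadjusted p under 0.05. Each class of 6 libraries pools different antibodies over 2 replicates, so its spread is not that of replicates of a single condition. The splits took no account of replicate number. The smallest exact permutation p that 924 splits can give is 0.00216. Over 12998 promoters the adjusted threshold could be passed only if many promoters reached that p. The count of 0 therefore does not show that cover was alike. HES7 had the lowest p of the family. Its cover in DPPA2-directed libraries ranged from 0 through a median of 2397.5 to 3001 bp, and in DPPA4-directed libraries from 2400 through a median of 3001 to 3001 bp. The means were 2048.5 ± 1205 bp and 2901 ± 245 bp (SD, n = 6 each), a difference of -852 bp (exact permutation p = 0.0736, adjusted p = 0.613). By replicate, the HES7 difference was -4 bp in replicate 1 and -1701 bp in replicate 2, whose lists were shorter. Without the Flag monoclonal antibody it was -577 bp.

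HEY1 had 2339.5 ± 814 bp in DPPA2-directed and 2845 ± 221 bp in DPPA4-directed libraries (difference -506 bp, exact permutation p = 0.227, SD, n = 6 each). The HEY1 difference was 22.3 bp in replicate 1, -1034 bp in replicate 2 and -386 bp without the Flag monoclonal antibody. HEY2 had 833 ± 596 and 1295 ± 482 bp (difference -461.5 bp, exact permutation p = 0.186). The HEY2 difference was -356 bp in replicate 1, -567 bp in replicate 2 and -320 bp without the Flag monoclonal antibody. HES4 had 649 ± 754 and 599 ± 744 bp (exact permutation p = 1.00), with 0 bp in every library of replicate 2 in both classes. Cover overlapped between the classes at every gene, and the median difference over all promoters tested was -400 bp.

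**Figure D3:**
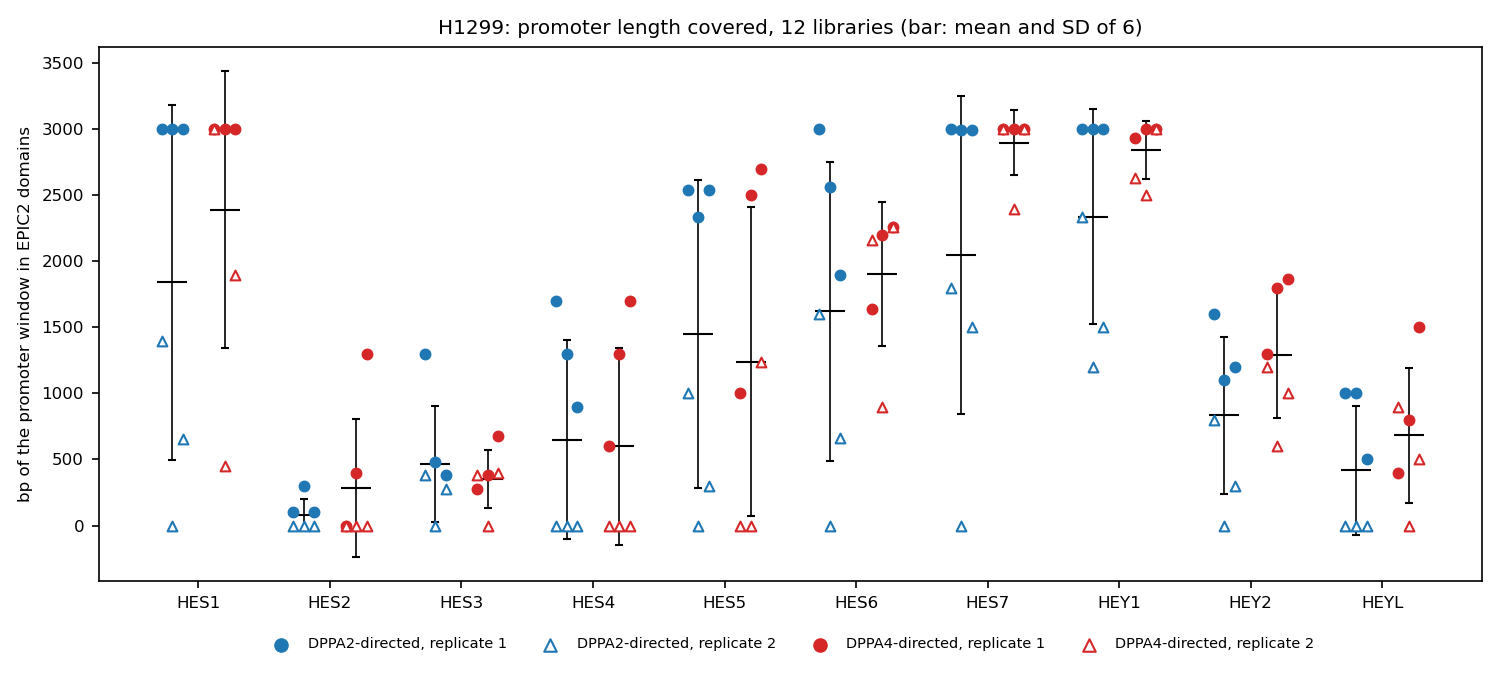
Length of the 3001 bp promoter window inside EPIC2 domains (y axis, bp) for each gene in 12 H1299 libraries, DPPA2-directed (blue, left) and DPPA4-directed (red, right), where filled circles are replicate 1, open triangles are replicate 2, and bars are the mean and SD of 6 libraries. Replicate 2 lies at 0 bp for HES2 and HES4. HES7 has the largest difference, -852 bp, which is -4 bp in replicate 1 and -1701 bp in replicate 2.

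Genes that work with the family were counted by the same rule in parental H661, where both DPPA2 and N-terminal DPPA4 peaks lay at 39.2% of all promoters. They touched 7 of 9 Notch receptors and ligands (NOTCH1, NOTCH2, DLL1 and DLL3 among them, not NOTCH3 and NOTCH4), 2 of 4 genes of the RBPJ complex (RBPJ and MAML1, not MAML2 and MAML3), 2 of 5 Groucho co-repressors (TLE1 and TLE3, not TLE2, TLE4 and TLE6) and 2 of 3 Orange relatives (BHLHE40 and BHLHE41, not HELT). Among proneural genes, which HES proteins repress, they touched NEUROG2 and not ATOH1, NEUROG1 and NEUROG3.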

How the data were processed

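CUT&RUN libraries were processed by the authors with Trim Galore 0.6.6, BWA 0.7.13 (hg38), SAMtools 1.9 and Picard 2.6.0 (submitters' processing notes). Regions were called per library against IgG with MACS2 (2.27.1 in the notes) and EPIC2, with no pooling of replicates. The deposited EPIC2 files give whole-number read counts of library and IgG, a log2 fold change scaled for library size, a p-value, an FDR and a score. The deposited MACS2 files give a fold enrichment (a ratio), −log10 p-values and q-values and a score derived from the q-value.

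Regions with FDR below 0.05 and log2 fold change above 1 (MACS2 fold above 2) on chromosomes 1 to 22 and X were kept. The blacklist of the study was not applied. As in the study, EPIC2 domains were used for H1299 and MACS2 peaks for parental H661; for the hairpin lines EPIC2 was chosen here, because it gives read counts, and MACS2 was an alternative. EPIC2 settings for CUT&RUN are not given in the sources used here. The parental DPPA2 antibody, raised in mouse, was set against rabbit IgG by the file names. Promoters were GENCODE 44 canonical starts ± 1500 bp. No region passed a chromosome end of hg38. Of 266 EPIC2 values at the 10 genes, 27 rest on no IgG read, so lengths and reads were preferred to EPIC2 folds.

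The deposited log2 fold change differed from the log2 ratio of its 2 counts by a constant in each DOX and water library of DPPA4 and RING1B, and IgG counts of domains with the same ends were equal between DOX and water libraries, which gives relative library size. Intervals are exact binomial (95%). The permutation test used Benjamini-Hochberg adjustment and was tested on simulated data. All 10 genes were named, and of the other lists at most 4 bound and 4 unbound genes. A list of proneural genes is reported in part and without a count. Genes and lists were chosen with earlier results of these data known. Alternatives changed the caller, fold limit, window, overlap, start site, antibody, replicate, scaling and measure. Python 3.11.15, numpy 2.4.6, pandas 2.3.3, scipy 1.17.1 and matplotlib 3.10.9 were used.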

Additional observations from a re-analysis of the deposited data

Results flagged for a closer look

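Of 20 groups of 6 H1299 libraries, 4 held a library whose covered length stood far from the others. Chance flags about 1 in 20 groups of untied values, a rate that does not apply here, since cover is bounded by 0 and by the full window and several libraries are tied. HES7 had 2400 bp with the N-terminal DPPA4 antibody in replicate 2, and 3001 bp, the full window, in the other DPPA4-directed libraries. HES2 had 300 bp with the Flag monoclonal antibody in replicate 1 among DPPA2-directed libraries and 1300 bp with V5 in replicate 1 among DPPA4-directed libraries. HES3 had 1301 bp with the DPPA2 antibody in replicate 1.

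RING1B reads per kb moved in opposite directions in the hairpin lines at HES5 and HEY2, and this difference was not tested. HES5 had a log2 ratio of DOX over water of 0.40 in shDPPA4 and -0.43 in shDPPA2+4. HEY2 had 0.30 in shDPPA4 and -0.77 in shDPPA2+4. The opposition depended on the processing: in shDPPA4 HEY2 was -0.51 with the highest MACS2 fold, and HES5 was 0.02 with that fold and -0.29 with a 5000 bp window, while in shDPPA2+4 HES5 was 0.27 without scaling.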

How the results depend on the processing

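Of 81 alternatives to the counts, 61 stayed within 1.5 times the main count and 20 did not. The 61 include every alternative to the H1299 covered-length test, whose count of 0 promoters stayed at 0 throughout. Shares of all promoters at the same setting are in brackets. With the central-region antibody 3 genes carried both proteins in parental H661 (5.35%), against 9. In H1299 the count of 5 was 2 with MACS2 peaks (3.46%) and 2 with a log2 fold change above 2 (15.1%). It was 5 without replicate 1 (30.7%) and 10 without replicate 2 (61.4%). PCGF1 lay at 2 genes with MACS2 peaks (1.41%), against 8. MTF2 lay at 5 (36.9%) and EP300 at 5 (21.6%) with a log2 fold change above 2, against 8 and 10. EP300 lay at 4 (33.2%) where 500 bp of the window had to be covered. For DOX against water, shares are of promoters with a region in both arms, and genes without one are not counted. DPPA4 reads per kb fell past 2-fold at 1 gene in each hairpin line. In shDPPA4 this count was 7 without scaling to library size (66.4%) and 0 with a 5000 bp window (5.31%). It was 6 with the highest MACS2 fold (51.7%) and 8 with total reads (75.3%), a measure chosen after seeing the data. In shDPPA2+4 it was 0 without scaling (0.279%) and 0 with a 5000 bp window (15.6%). It was 5 with the MACS2 fold (24.6%) and 9 with total reads (63.7%). For RING1B in shDPPA4 the count of 0 was 2 with the MACS2 fold (15.2%). In shDPPA2+4 the count of 3 was 0 without scaling (1.81%) and 0 with a log2 fold change above 2 (21.1%). It was 1 with a 500 bp window (23.8%). At HES3, DPPA4 reads per kb in shDPPA4 (log2 1.27) reversed to -0.66 with the MACS2 fold and -1.24 with total reads.

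In H1299 no promoter passed the adjusted threshold under any alternative: with 1 replicate left out (0 to 0 promoters, where 3 against 3 libraries cannot reach p under 0.10), without the Flag monoclonal antibody, with MACS2, a higher fold limit or other windows. Permuting within replicate number as a replicate block gave 0 promoters, with 2075 at an unadjusted p under 0.05 against 614. By this within-replicate permutation HES7 had p = 0.02 (adjusted 0.261) and HEY2 p = 0.045 (adjusted 0.280). Every other gene of the family had p of 0.10 or more. The correlation of replicate 1 minus replicate 2 between antibodies ranged from 0.012 to 0.53. The labels give the replicates only a number, but every antibody had a shorter list in replicate 2. H661 has 1 library per antibody and arm, so its differences cannot be told apart from differences between libraries. The lists of H1299 replicate 2 held only 48262 to 801969 reads in domains, so a promoter without a domain there was not shown to be unbound. Whether sequencing depth or weaker enrichment lay behind these counts was not tested.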
